A study of Mus musculus with 6 samples.

Results

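The genes described here make or remove reactive oxygen and nitrogen in the gut wall: Duox2, Duoxa2, Nos2, Nox1, Gpx2 and Cybb, 6 members taken by symbol from the 32285 genes in the deposited count matrices. Droplet-based single-cell RNA sequencing was run on dissociated small intestinal epithelium of C57BL/6 mice aged 6 to 8 weeks, with 3 libraries from control littermates (HuR fl/fl without Cre, labelled wild-type) and 3 libraries from IE-HuR-/- mice (HuR fl/fl crossed with villin-Cre mice). Villin-Cre is active across the intestinal epithelium and not in the immune or stromal cells of the same suspension. Both groups carried the floxed HuR alleles, and groups were matched for age and sex. Per the study's methods, animals were fasted before experiments, with tap water freely available. The suspension pooled a villus-rich and a crypt-rich fraction, and the length of small intestine it was taken from is not given for these libraries in the sources used here. For histology and for protein and RNA, the study took the middle small intestine.

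Epithelial cells of the gut release oxidants towards the lumen. DUOX2 is a dual oxidase that releases hydrogen peroxide at the apical membrane, and it leaves the endoplasmic reticulum only with its maturation factor DUOXA2. NOX1 makes superoxide with NOXO1, NOXA1, p22phox (Cyba) and RAC1, and is known chiefly from the colon and from crypts. Inducible nitric oxide synthase, encoded by Nos2, makes nitric oxide from arginine. Gpx2 encodes a glutathione peroxidase of the gastrointestinal epithelium that removes hydroperoxides, and Cybb encodes the catalytic subunit of the oxidase of phagocytes. Duox2, Duoxa2 and Nos2 are known as genes that microbes and cytokines such as IL-17 and IL-22 raise in the small intestine.

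Duox2 (ENSMUSG00000068452) and Duoxa2 (ENSMUSG00000027225) lie head to head on chromosome 2 in GRCm38, the build the files use. Duox2 spans 122279247 to 122298449 on the minus strand and Duoxa2 spans 122298900 to 122302885 on the plus strand, so that 450 bases separate their starts. The 250 bases before the RefSeq start of Duoxa2 (GRCm38.p6, chr2:122298650-122298899, plus strand) are shown because they fill most of this shared interval, with a TATAAA match in capitals whose first base is 30 bases before the start. The 250 bases before Gpx2 (chr12:76795555-76795804, minus strand) are shown because Gpx2 was the member that was higher in crypt-like than in villus cells, and the capitals there mark CCAAT on the opposite strand, 71 bases before the start.
Duoxa2: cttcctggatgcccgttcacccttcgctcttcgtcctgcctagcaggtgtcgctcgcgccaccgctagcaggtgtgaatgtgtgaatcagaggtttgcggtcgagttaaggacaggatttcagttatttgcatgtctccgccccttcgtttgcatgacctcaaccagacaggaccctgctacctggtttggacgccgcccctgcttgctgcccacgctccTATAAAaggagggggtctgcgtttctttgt
Gpx2: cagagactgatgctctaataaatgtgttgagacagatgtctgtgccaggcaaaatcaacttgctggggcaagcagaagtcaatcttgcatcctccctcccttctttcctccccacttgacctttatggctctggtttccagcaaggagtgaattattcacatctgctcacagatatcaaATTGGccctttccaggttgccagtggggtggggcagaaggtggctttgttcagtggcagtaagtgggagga
Both strands were searched for 4 patterns, and no match overlapped another in these windows. TATAAA was found in 12.4% of 32851 RefSeq windows of 250 bases and CCAAT in 33.9%, so neither letter run is rare. TTCNNNGAA, the pattern bound by STAT factors, was found in 7.02% of windows, and TGACNNNGC, the core of antioxidant response elements, in 10.2%. Neither of these 2 patterns was in the windows of Duox2, Duoxa2, Gpx2, Nox1 or Cybb.

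The remaining members lie apart from one another. Nos2 (ENSMUSG00000020826) is on chromosome 11 from 78920787 to 78960254 on the plus strand, and Gpx2 (ENSMUSG00000042808) on chromosome 12 from 76792333 to 76795554 on the minus strand. Cybb (ENSMUSG00000015340) and Nox1 (ENSMUSG00000031257) are both on the minus strand of chromosome X, from 9435252 to 9487771 and from 134086421 to 134221956. The last 695 bases of Duoxa2 overlap Duoxa1 on the opposite strand, and whether counting used strand is not stated in the sources used here, so Duoxa1 counts are uncertain.

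The 6 libraries held 60706 cell barcodes and 428980031 unique molecular identifiers (UMIs, each standing for 1 captured RNA molecule), with 59518012 to 91818560 UMIs and a median of 1275 to 2877 UMIs per barcode in each library. Libraries of the same label differed by more than sampling noise, and any 2 libraries shared 22 to 44 barcode sequences. Elavl1, which encodes HuR, showed no drop under the IE-HuR-/- label: its epithelial level was 29.3, 31.9 and 29.9 CPM (counts scaled to a total of 1000000 UMIs) in the control libraries and 31.0, 30.7 and 32.1 CPM in those labelled IE-HuR-/- (log2 fold change 0.17, edgeR adjusted p = 0.00633). Which exons the floxed allele removes is not given in the sources used here, so these counts cannot check the deletion, and every direction below rests on the labels. Cells were placed in classes by marker genes that include no member. The epithelial class held 45377 cells and 85.5% of all UMIs, of which 40065 cells were enterocyte-like, 1391 goblet-like and 101 stem or transit amplifying-like. All 12 epithelial markers were detected in every library. Among the other cells, 6171 were T or NK-like and 197 myeloid-like, the latter with 17 of 18 macrophage and dendritic markers detected (Xcr1 was at 0).

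Transcripts of Duox2, Duoxa2, Nos2 and Gpx2 lay mostly in enterocyte-like cells, and those of Cybb in immune cells. Over all libraries 97.4% of the 70905 Duox2 UMIs, 96.6% of the 73197 Duoxa2 UMIs, 96.3% of the 22361 Nos2 UMIs and 97.5% of the 127509 Gpx2 UMIs lay in epithelial cells, beside 85.5% of UMIs of all genes. Enterocyte-like cells alone held 86.6%, 86.0%, 85.0% and 86.8% of them in the same order, beside 73.3% of UMIs of all genes. Cybb was the reverse, with 7.33% of 2074 UMIs in epithelial cells, 37.3% in myeloid-like cells and 33.6% in plasmacytoid dendritic-like cells. Nox1 was barely captured, with 128 UMIs in 119 cells.

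Class levels were compared within each library by a two-sided exact permutation test that flips the sign of the difference per library, on log2(CPM + 1). The smallest p that 6 libraries allow is 0.03125, and p-values were adjusted by the Benjamini-Hochberg method over 24 contrasts, of which 16 passed. These include Nox1 in myeloid-like against enterocyte-like cells, where the absence of any myeloid-like Nox1 UMI fixed the direction, so that contrast carries no result. Duox2 was lower than in enterocyte-like cells by a mean log2 difference of -1.67 in stem or transit amplifying-like cells, -3.43 in T or NK-like cells and -3.52 in myeloid-like cells, each lower in 6 of 6 libraries (exact p = 0.03125, adjusted p = 0.0469). For Duoxa2 these differences were -1.63, -2.74 and -2.60, and for Nos2 -2.81, -2.97 and -4.04 (same p-values). Goblet-like and enterocyte-like cells did not differ in these genes beyond the spread over libraries. Their mean difference was -0.02 for Duox2 (SD 0.30, n = 6, exact permutation p = 0.844), 0.08 for Duoxa2 (SD 0.31, p = 0.531) and -0.09 for Nos2 (SD 0.53, p = 0.719). Gpx2 had an order of its own: it was higher in stem or transit amplifying-like cells than in enterocyte-like cells by 1.91 and lower in goblet-like cells by -1.14, each in 6 of 6 libraries (exact p = 0.03125, adjusted p = 0.0469).

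The epithelial members were also read outside the epithelium, beside the epithelial markers found there. In T or NK-like cells, Duox2 stood at 5.12 to 11.5% of its enterocyte-like level in the 6 libraries, Duoxa2 at 9.64 to 18.8%, Nos2 at 5.59 to 15.7% and Gpx2 at 5.02 to 11.5%. The summed epithelial markers stood there at 6.90 to 13.4% of their enterocyte-like level, and the summed enterocyte markers at 5.53 to 12.5%. Duoxa2 stood above the epithelial markers in each library, at 15.6, 18.8 and 9.64% against 10.3, 13.4 and 6.90% in controls. Under the other label it stood at 13.3, 13.2 and 16.4% against 7.51, 6.99 and 7.94%. Duox2 lay below the epithelial markers in each control library and above them in the others, and Nos2 and Gpx2 lay on both sides. Myeloid-like cells varied more, with Duoxa2 at 10.1 to 31.0% and Nos2 at 0 to 55.8% of the enterocyte-like level, the highest in IE-HuR-/- replicate 1 from 16 Duoxa2 and 5 Nos2 UMIs, while the epithelial markers stood at 4.89 to 9.20%. In goblet-like cells the enterocyte markers stood at 40.9 to 65.7%, while Duox2 stood at 76.9 to 125%. The part of enterocyte RNA in the oxidant gene levels of goblet-like cells was not tested.

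**Figure D1:**
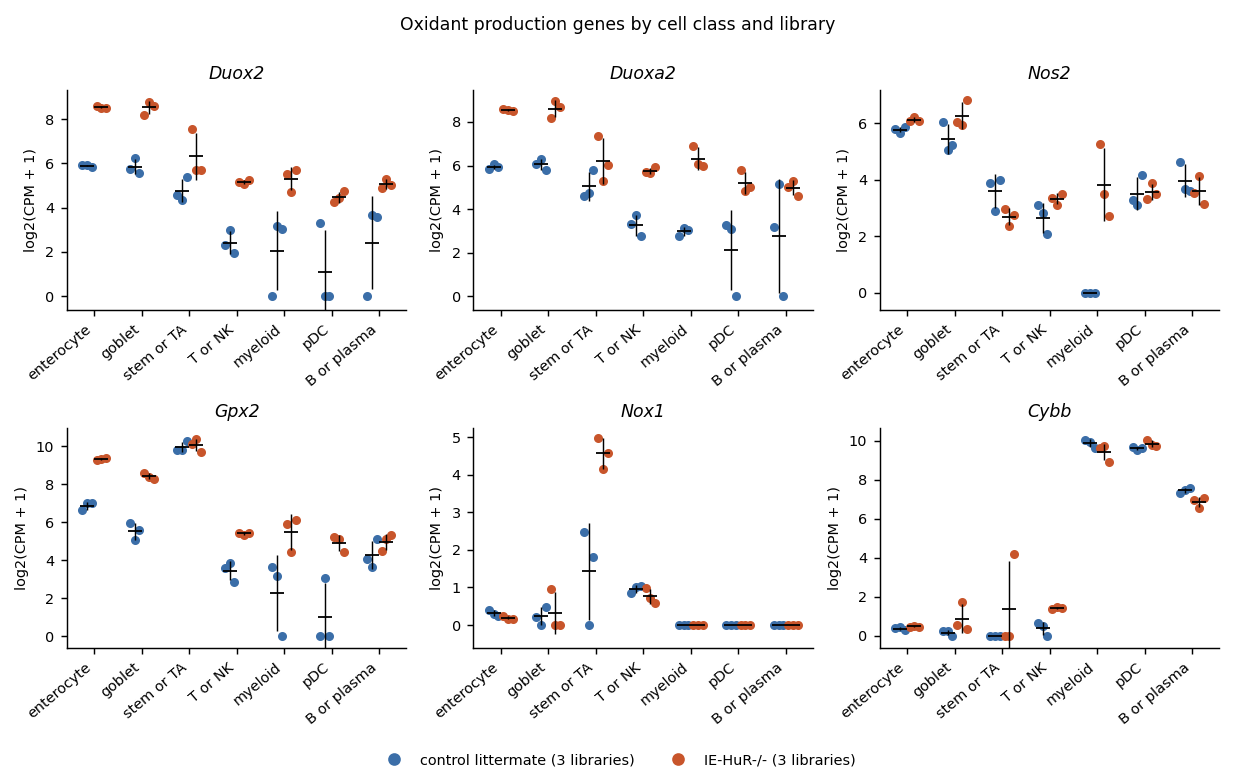
Level of each member, as log2(CPM + 1), in the summed cells of each class, with 1 point per library and colour for the label. By group mean, Duox2, Duoxa2 and Nos2 lie highest in enterocyte-like and goblet-like cells and Gpx2 in stem or transit amplifying-like cells. These genes lie lower in T or NK-like and myeloid-like cells. Nos2 is also low in stem or transit amplifying-like cells (4.20 to 6.77 CPM under the IE-HuR-/- label). Cybb lies at 485 to 1052 CPM in myeloid-like cells and below 1 CPM in enterocyte-like cells.

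The dual oxidase and its maturation factor rose under the IE-HuR-/- label. Over all enterocyte-like or all epithelial cells the paired genes moved by about the same amount. Duox2 in enterocyte-like cells was 59.2, 59.3 and 56.8 CPM in the control libraries and 381, 363 and 361 CPM in those labelled IE-HuR-/-. The groups were far apart, and the spread within each was small. The fold was 7.04 in a quasi-likelihood fit by edgeR over 12861 genes (log2 fold change 2.82, SE 0.04, Benjamini-Hochberg adjusted p = 2.9e-24). Duoxa2 was 57.1, 65.3 and 60.4 CPM in the control libraries and 387, 378 and 364 CPM in those labelled IE-HuR-/-. Its groups did not overlap either, and its fold was 6.89 (log2 fold change 2.78, edgeR adjusted p = 4.15e-22). Over all epithelial cells Duox2 rose 6.81-fold, with a 95% interval of 6.44 to 7.21 (log2 2.77, SE 0.04, adjusted p = 1.2e-15), and Duoxa2 by 2.73 on the log2 scale (SE 0.05, adjusted p = 1.3e-13).

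Gpx2 rose nearly as far as the oxidase. Its enterocyte-like level was 98.3, 126 and 127 CPM in the control libraries and 623, 651 and 670 CPM in those labelled IE-HuR-/-. Every library of the second group lay above every control library, by 6.18-fold in the fit (log2 2.63, edgeR adjusted p = 2.6e-05). Nos2 moved less: it was 55.2, 50.0 and 56.8 CPM in the control libraries and 67.3, 73.8 and 66.2 CPM in those labelled IE-HuR-/-. The groups did not overlap, and the fold was 1.43 (log2 0.52, SE 0.05, edgeR adjusted p = 1.2e-07). In enterocyte-like cells 4 of the 5 members tested were higher, where 26.9% of all genes tested were called higher and 58.1% were called in either direction. In all epithelial cells 5 of 6 were higher, beside 24.2% of all genes, and Nox1 was not called (log2 0.25, edgeR adjusted p = 0.602, 95 UMIs). The members were chosen with earlier results of these data known, so counts of members are given as a description. Without scaling by trimmed means 1937 genes were higher and 6183 lower in enterocyte-like cells in place of 3466 and 4000, with the median of all genes at -0.19, and the calls of these members were kept.

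The fifth, Cybb, was called from very few molecules. Its epithelial level was 0.293, 0.390 and 0.195 CPM in the control libraries and 0.433, 0.647 and 0.570 CPM in those labelled IE-HuR-/- (log2 1.00, edgeR adjusted p = 0.0109). The call was lost without IE-HuR-/- replicate 2 (0.88, adjusted p = 0.0564) and with cells of 2 lineages kept (0.68, adjusted p = 0.201), and it was not made in enterocyte-like cells (0.59). Immune markers in the same cells did not share one direction: summed T or NK markers in epithelial cells ranged from 126 to 251 CPM in control libraries and from 227 to 270 CPM in those labelled IE-HuR-/-, while summed macrophage and dendritic markers ranged from 314 to 320 and from 246 to 254 CPM. Their part in the Cybb level was not tested.

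Goblet-like cells repeated the pattern at lower depth. Duox2 was 52.4, 74.4 and 46.3 CPM in the control libraries and 293, 440 and 386 CPM in those labelled IE-HuR-/- (log2 2.87, SE 0.24, edgeR adjusted p = 0.000214). Duoxa2 was 67.0, 78.2 and 54.5 against 288, 498 and 411 CPM (2.76, adjusted p = 0.000462), and Gpx2 was 60.2, 31.9 and 46.7 against 384, 332 and 314 CPM (3.08, adjusted p = 1.1e-06). Of the 4 members tested there, 3 were higher, beside 15.1% of all genes tested. Nos2 was 64.9, 32.6 and 36.6 CPM in control libraries and 64.6, 61.0 and 113 CPM in those labelled IE-HuR-/-, and these groups overlapped (1.02, adjusted p = 0.157; without control littermate replicate 1, 1.39, adjusted p = 0.0377). No member passed an edgeR interaction test of the label effect between goblet-like and enterocyte-like cells, which 5.94% of all genes passed. The difference was 0.03 for Duox2 (SE 0.25) and 0.43 for Gpx2 (SE 0.33), and 1 of the 5 members tested (Cybb) had an unadjusted p under 0.05. Without control littermate replicate 1 the Gpx2 difference was 0.81 and passed the test (adjusted p = 0.00155).

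**Figure D2:**
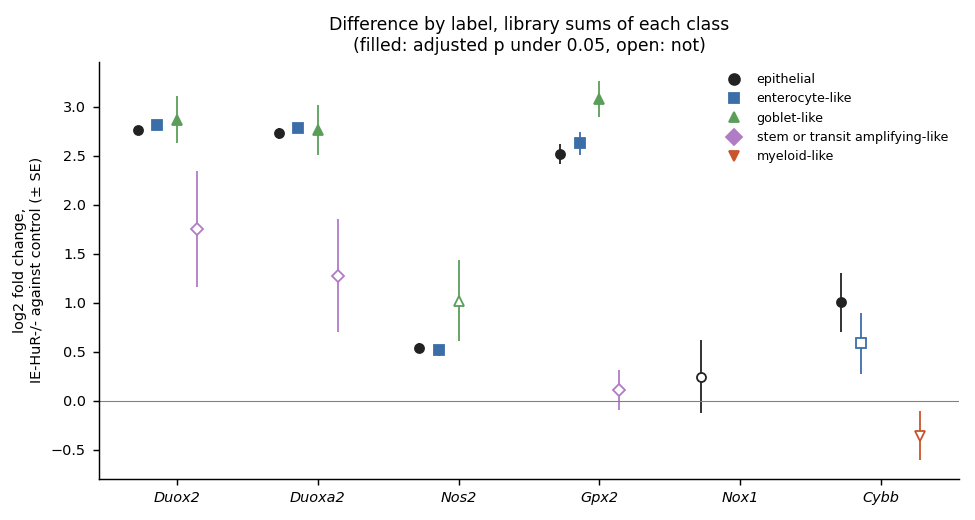
Log2 fold change of each tested member between the libraries labelled IE-HuR-/- and the control libraries, by cell class, with bars of 1 SE on either side from the edgeR fit. Duox2, Duoxa2 and Gpx2 lie between 2.52 and 3.08 in the epithelial, enterocyte-like and goblet-like sums, and Gpx2 lies at 0.11 in stem or transit amplifying-like cells.

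Gpx2 in stem or transit amplifying-like cells was high under both labels. It was 909, 903 and 1223 CPM in the control libraries and 1106, 1330 and 844 CPM in those labelled IE-HuR-/-, so the groups overlapped (log2 0.11, SE 0.20, edgeR adjusted p = 0.936). The label effect there was smaller than in enterocyte-like cells by -2.49 (SE 0.30, adjusted p = 3.0e-10), in a fit where 0.459% of all genes differed. Leaving out each library in turn kept this difference between -2.76 and -2.39. In control libraries the few crypt-like cells held 197, 140 and 488 Gpx2 UMIs, and the enterocyte-like cells 5772, 8782 and 5987. As CPM, Gpx2 in the crypt-like cells stood at 716 to 967% of the enterocyte-like level in control libraries and at 126 to 204% in those labelled IE-HuR-/-. Enterocyte markers in these cells stood at 1.99 to 5.88% of the enterocyte-like level in control libraries and at 10.4 to 27.4% in those labelled IE-HuR-/-. Epithelial markers stood at 76.6 to 113.7% and at 54.95 to 59.05%. Summed T or NK markers reached at most 64.5 CPM in control libraries and ranged from 118 to 761 CPM in the others. Summed goblet markers (309 to 14160 and 758 to 2594 CPM) and stem or transit amplifying markers (6729 to 9542 and 6697 to 7289 CPM) overlapped. The cells of this class thus differed in their markers between labels, and the part of this in the Gpx2 difference was not tested.

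The oxidase pair was scarce in the same cells, which numbered 10 to 32 per library. Duox2 was 23.1, 19.3 and 40.1 CPM in the control libraries and 186, 50.4 and 51.7 CPM in those labelled IE-HuR-/- (log2 1.76, SE 0.59, edgeR adjusted p = 0.463). The highest value came from IE-HuR-/- replicate 1, which also held the most enterocyte marker RNA in these cells. Duoxa2 was 23.1, 25.8 and 55.1 against 162, 37.8 and 63.2 CPM (1.28, adjusted p = 0.617), and its groups overlapped. None of the 3 members tested was called, with 2 at an unadjusted p under 0.05 and none by DESeq2, in a comparison that called 0.352% of 3408 genes. The Duoxa2 effect differed from that in enterocyte-like cells by -1.58 (adjusted p = 0.161), which passed the test without control littermate replicate 1 (-1.92, adjusted p = 0.0117), control littermate replicate 2 (-1.90, adjusted p = 0.00764) or IE-HuR-/- replicate 1 (-2.47, adjusted p = 0.000265). For Duox2 the difference was -1.16 (adjusted p = 0.454), and it passed without IE-HuR-/- replicate 1 (-2.10, adjusted p = 0.00788).

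Nox1, with few molecules in all, was read in the same cells. Stem or transit amplifying-like cells gave 1, 0 and 1 Nox1 UMIs in the control libraries and 9, 4 and 4 in those labelled IE-HuR-/-, or 14.8% of all Nox1 UMIs from 0.345% of UMIs of all genes. The groups did not overlap, but the gene was under the count filter of the fit, and its interaction with class was not called (3.74, SE 1.23, adjusted p = 0.194). Its mean difference from enterocyte-like cells was 2.75 in 5 of 6 libraries (exact permutation p = 0.0625, adjusted p = 0.0882). In T or NK-like cells Nox1 was above the enterocyte-like level by 0.61 in 6 of 6 libraries (exact permutation p = 0.03125, adjusted p = 0.0469). That difference rests on few molecules, and with other settings or 1 library left out it ranged from 0.57 to 1.65. Epithelial cells held 74.2% of all Nox1 UMIs, beside 85.5% of UMIs of all genes, and enterocyte-like cells 49.2%, beside 73.3%. No Nox1 UMI was seen in myeloid-like, plasmacytoid dendritic-like or B or plasma-like cells. For myeloid-like cells 3 UMIs, the count that 0 allows, would be 15.3 to 23.8 CPM per library, so a low level there was not detectable at this depth.

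Cybb was also read in myeloid-like cells, which use the phagocyte oxidase. It was 1052, 990 and 789 CPM in the control libraries and 780, 844 and 485 CPM in those labelled IE-HuR-/-. The groups overlapped, and the fit gave a log2 fold change of -0.35 (SE 0.25, edgeR adjusted p = 0.652), in a class where 0.216% of genes were called. It was the 1 member tested there. It had no unadjusted p under 0.05 and was not called by DESeq2. Plasmacytoid dendritic-like cells gave 816, 742 and 792 CPM in control libraries and 1057, 893 and 842 CPM in those labelled IE-HuR-/-. Cybb was lower again in B or plasma-like cells, at 159, 176 and 189 CPM in control libraries and 124, 93.9 and 133 CPM in those labelled IE-HuR-/-. The other members together gave 22 Duox2, 43 Duoxa2, 8 Nos2 and 27 Gpx2 UMIs in all myeloid-like cells, which held enterocyte markers at 5.24 to 9.46% of the enterocyte-like level.

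More cells carried each epithelial transcript, at equal depth. Shares were taken among enterocyte-like cells that held at least 2000 UMIs, 2162 to 4589 per library, with 2000 UMIs drawn from each. Duox2 was detected in 6.43, 7.30 and 6.61% of these cells in the control libraries and in 29.5, 25.9 and 26.7% in those labelled IE-HuR-/-. Duoxa2 was detected in 6.80, 7.28 and 5.83% and in 28.1, 24.5 and 25.5%, and Gpx2 in 15.4, 17.3 and 17.2% and in 57.2, 57.2 and 56.3%. Nos2 was detected in 6.14, 5.95 and 5.32% and in 8.17, 7.97 and 6.57%. None of these groups overlapped. An exact permutation test of 3 against 3 libraries cannot go below p = 0.1, the value each of these shares gave. Of 13 such comparisons, taken over enterocyte-like, goblet-like, stem or transit amplifying-like and myeloid-like cells, 10 did not overlap. Shares of all genes were not compared in this way, so this count is a description. In the summed levels of enterocyte-like cells 58.1% of all genes were called in either direction. T or NK-like cells, which should lack these transcripts, gave Duox2 in 0.421 to 1.59% of cells in control libraries and in 6.36 to 7.55% in those labelled IE-HuR-/-, so the background share rose with the label too. Gpx2 was detected there in 1.26 to 2.71% and in 7.36 to 7.63% of cells, and Nos2 in 0.785 to 1.31% and in 1.43 to 1.80%. Each of these shares was below the enterocyte-like share of the same gene and label. Duoxa2 gave more UMIs than Duox2 in T or NK-like cells of each library. Its counts were 45, 61 and 22 UMIs in control libraries and 262, 308 and 362 in those labelled IE-HuR-/-. Those of Duox2 were 20, 34 and 11 and then 175, 202 and 224.

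Duox2 and Duoxa2 were found in the same cells more often than their separate shares predict. Among enterocyte-like cells at 2000 UMIs, Duoxa2 was detected in 38.1, 35.2 and 27.3% of Duox2-positive cells of the control libraries and in 4.65, 5.08 and 4.31% of Duox2-negative cells. In the libraries labelled IE-HuR-/- it was detected in 57.4, 57.0 and 54.9% of positive and in 15.8, 13.1 and 14.8% of negative cells. Cells with both transcripts outnumbered the product of the shares by 5.60, 4.84 and 4.68 times in the control libraries and by 2.04, 2.33 and 2.15 times in the others. The ratio was above 1 in 6 of 6 libraries (exact permutation p = 0.03125, adjusted p = 0.0375 over 6 pairs). The highest value this ratio can take falls as the shares rise, so the lower ratios under the IE-HuR-/- label are no measure of looser coupling.

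Over all enterocyte-like cells with at least 2000 UMIs, Nos2 was also found with the oxidase pair, and Gpx2 apart from it. Duox2 with Nos2 gave ratios of 1.68, 1.81 and 1.18 in the control libraries and 2.04, 2.10 and 2.07 in those labelled IE-HuR-/-, and Duoxa2 with Nos2 gave 2.14, 2.72 and 2.54 and then 1.68, 1.77 and 2.10. Duox2 with Gpx2 lay below 1 in every library, at 0.436, 0.568 and 0.366 in controls and at 0.796, 0.758 and 0.757 under the other label. Duoxa2 with Gpx2 also lay below 1, between 0.507 and 0.867 (exact permutation p = 0.03125 for each of these pairs, adjusted p = 0.0375). Nos2 with Gpx2 lay on both sides of 1, from 0.792 to 1.17 (adjusted p = 0.719). Within 3 equal bins of cells ranked by villus markers, the Duox2 with Duoxa2 ratio stayed above 1 in 6 of 6 libraries of each bin, from 6.84 to 11.8 and from 3.12 to 3.33 in the lower bin and from 2.91 to 3.82 and from 1.59 to 1.62 in the upper bin, controls first. The adjusted p-values were 0.0625, 0.0625 and 0.0938 from lower to upper. Duoxa2 with Nos2 also stayed above 1 in 6 of 6 libraries of each bin, with the same adjusted p-values. Duox2 with Nos2 missed the threshold in each bin as well (adjusted p = 0.0625, 0.0625 and 0.125) and lay below 1 in the upper bin of control littermate replicate 2, at 0.896. Ratios of Gpx2 with either gene lay on both sides of 1 there, so their separation over all enterocyte-like cells was not seen within these bins.

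**Figure D3:**
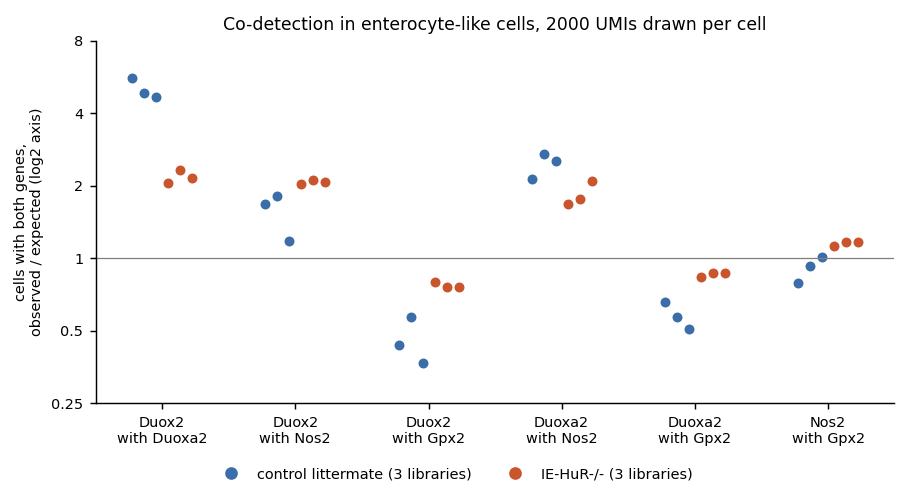
Observed over expected number of enterocyte-like cells with both transcripts of a pair at 2000 drawn UMIs, with 1 point per library and a line at 1. Duox2 with Duoxa2 lies between 2.04 and 5.60, and both pairs of an oxidase gene with Gpx2 lie below 1.

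Position on the villus separated the members. Enterocyte-like cells with at least 5000 UMIs were ranked within each library by villus-tip minus lower-villus markers and cut into 3 equal bins of 550 to 1037 cells. Duox2 was 17.9, 18.1 and 14.7 CPM in the lower bin of the control libraries and 143, 138 and 128 CPM in the upper bin, and it was 104, 121 and 102 and then 806, 726 and 773 CPM in those labelled IE-HuR-/-. Duoxa2 ran the same way, from 26.4, 27.5 and 24.9 to 102, 131 and 107 CPM in controls and from 85.3, 110 and 94.0 to 796, 756 and 762 CPM under the other label. The upper bin exceeded the lower by a mean of 2.88 on the log2 scale for Duox2 and 2.53 for Duoxa2, in 6 of 6 libraries (exact permutation p = 0.03125, adjusted p = 0.03125 over 4 genes).

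Gpx2 fell from bin to bin, and Nos2 was also lowest in the upper bin. Gpx2 was 205, 272 and 283 CPM in the lower bin of the control libraries and 14.9, 15.7 and 10.8 CPM in the upper bin, and in the libraries labelled IE-HuR-/- the upper bin was still at 158, 154 and 158 CPM. Nos2 was 74.4, 64.8 and 69.3 CPM in the lower and 15.2, 17.6 and 17.0 CPM in the upper bin of the control libraries, against 75.5, 103 and 70.5 and then 64.8, 46.2 and 48.7 CPM under the other label. Its middle bin was at 84.6, 74.1 and 92.6 CPM in controls, above the lower bin in each library, and at 69.1, 82.1 and 88.2 CPM under the other label. The upper bin differed from the lower by a mean of -3.47 for Gpx2 and -1.31 for Nos2, in 6 of 6 libraries (exact permutation p = 0.03125, adjusted p = 0.03125). The H2O2-producing pair and the peroxidase thus lay at opposite ends of the villus under both labels.

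Duox2, Duoxa2 and Gpx2 were higher under the IE-HuR-/- label in each bin, and Nos2 in the upper bin. The ranking markers moved with the label too: Reg1, a lower-villus marker, was at a mean of 1686 CPM in the lower bin of the control libraries and 604 CPM in those labelled IE-HuR-/- (n = 3 each), and Ada, a villus-tip marker, at 668 and 1452 CPM in the middle bin. Markers of either list did not share one direction. In the lower bin Apoa4, a villus-tip marker, was at 8924 and 5385 CPM, and Lypd8, a lower-villus marker, at 770 and 1047 CPM. A bin therefore need not hold cells of the same height under both labels. Duox2 rose by 2.81, 3.19 and 2.71 on the log2 scale in the lower, middle and upper bin, where 43.7, 49.5 and 58.2% of all genes were called in either direction. Its effect did not pass a test of the difference between the upper and lower bin (-0.11, SE 0.12, edgeR adjusted p = 0.561), while 26.4% of all genes did. Duoxa2 rose by 2.01, 2.67 and 2.98 in the same order, less than Duox2 in the lower and middle bin and more in the upper. Its effect was larger in the upper bin than in the lower by 0.97 (SE 0.15, edgeR adjusted p = 0.00669). That call was lost by a small margin without control littermate replicate 3 (0.98, adjusted p = 0.0507). Gpx2 rose 13.0-fold in the upper bin and 4.86-fold in the lower, a difference of 1.40 (SE 0.22, adjusted p = 0.0147) that missed the threshold without control littermate replicate 2 (adjusted p = 0.0673), IE-HuR-/- replicate 1 (0.0567) or IE-HuR-/- replicate 3 (0.0590). Nos2 rose 3.72-fold in the upper bin (adjusted p = 0.000206) and was not called in the lower (0.39, adjusted p = 0.134) or middle bin (0.10, adjusted p = 0.413). The Nos2 difference of 1.496 (SE 0.31, adjusted p = 0.0333) was not called when cells from 2000 UMIs were used (0.95, adjusted p = 0.110), nor without any 1 of 5 libraries (adjusted p = 0.0533 to 0.110), IE-HuR-/- replicate 2 being the exception.

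**Figure D4:**
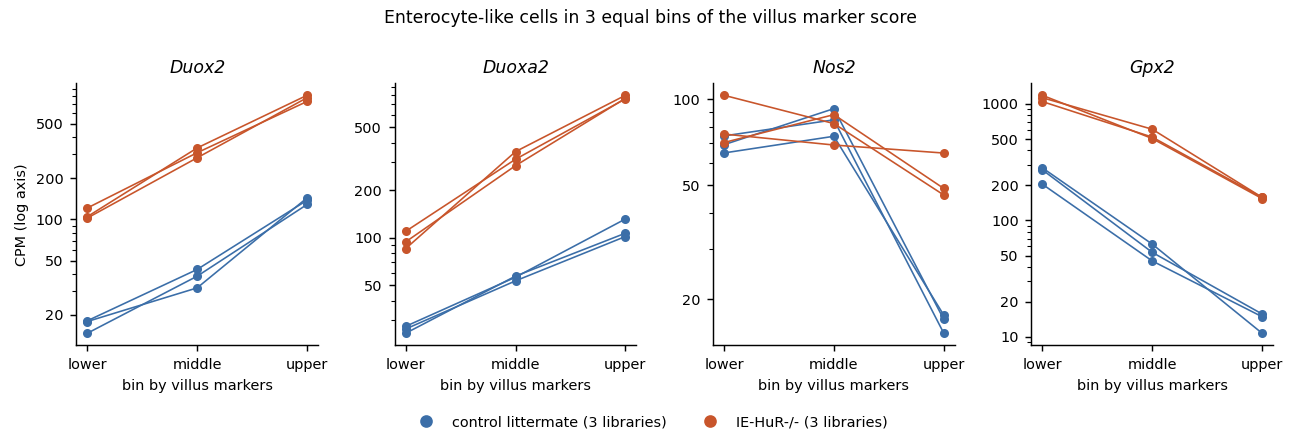
Level (CPM, log axis) of Duox2, Duoxa2, Nos2 and Gpx2 in the lower, middle and upper bin of enterocyte-like cells by villus markers, with 1 line per library and colour for the label. Duox2 and Duoxa2 climb towards the upper bin and Gpx2 falls, with the 3 libraries labelled IE-HuR-/- above the control libraries for these genes in every bin.

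Genes of the distal small intestine moved with the label. Fabp6, the ileal bile acid binding protein, was 665, 717 and 674 CPM in enterocyte-like cells of the control libraries and 2874, 3045 and 2986 CPM in those labelled IE-HuR-/- (log2 2.27), and Slc10a2, the ileal bile acid transporter, was 48.6, 49.3 and 50.9 and then 108, 130 and 105 CPM (1.37). Genes of the proximal small intestine were lower, with Pdx1, a duodenal transcription factor, at -1.38 and Slc40a1, the iron exporter, at -1.61, while Gata4 was at 0.03 (adjusted p = 0.592). Whether the libraries hold different lengths of intestine cannot be told apart from the label here. The members were therefore also read in cells with and without a Fabp6 or Slc10a2 UMI among 2000 drawn UMIs, a split made after these values were seen. Among enterocyte-like cells with at least 2000 UMIs, those with such a UMI made up 14.4, 15.8 and 13.0% in the control libraries. In the libraries labelled IE-HuR-/- they made up 34.7, 32.9 and 34.2%. T or NK-like cells held such a UMI in 4.87 to 11.4% and in 28.3 to 30.2% of cells, so such UMIs also became more frequent in cells that should lack them.

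Nos2 changed direction between these strata. In enterocyte-like cells without a Fabp6 or Slc10a2 UMI, Nos2 was 54.5, 48.7 and 56.7 CPM in the control libraries and 17.1, 21.4 and 21.6 CPM in those labelled IE-HuR-/- (log2 -1.25, SE 0.10, edgeR adjusted p = 1.2e-05). In cells with such a UMI it was 67.6, 67.8 and 69.1 CPM and then 212, 226 and 199 CPM (1.90, SE 0.07, adjusted p = 2.5e-17). Neither pair of groups overlapped, and the 2 effects differed by 3.16 (SE 0.10, adjusted p = 9.4e-11), in a fit where 17.3% of all genes differed. The difference stayed between 3.03 and 3.25 when each library was left out in turn. In cells with at least 3 such UMIs, 136 to 421 per library, Nos2 was 86.7, 87.0 and 91.6 CPM in controls and 316, 335 and 299 CPM under the other label (2.17), where 47.5% of all genes were called. Because Fabp6 and Slc10a2 themselves moved with the label, the strata need not hold the same kinds of cells under both labels.

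Duox2, Duoxa2 and Gpx2 rose in both strata. Without a Fabp6 or Slc10a2 UMI, Duox2 was 57.5, 52.5 and 53.4 CPM in the control libraries and 261, 232 and 247 CPM in those labelled IE-HuR-/- (log2 2.33), Duoxa2 rose by 2.32 and Gpx2 by 2.46, where 56.3% of all genes were called in either direction. With such a UMI, Duox2 was 87.5, 121 and 96.2 and then 766, 778 and 730 CPM (3.15), Duoxa2 rose by 3.16 and Gpx2 by 2.99, where 43.6% of all genes were called. The Gpx2 effect was larger in the second stratum by 0.54 (SE 0.06, edgeR adjusted p = 4.6e-07), also with each library left out. The same difference was 0.83 for Duox2 (SE 0.17, adjusted p = 0.0463) and 0.87 for Duoxa2 (SE 0.15, adjusted p = 0.0244). Both calls depended on single libraries: adjusted p rose to 0.149, 0.117, 0.136 and 0.116 for Duox2 without control littermate replicate 3 or IE-HuR-/- replicate 1, 2 or 3, and to 0.0553, 0.0815, 0.0954 and 0.0535 for Duoxa2 without control littermate replicate 2 or IE-HuR-/- replicate 1, 2 or 3. Cells with such a UMI had fewer UMIs, with medians of 5908 to 9858 against 8979 to 15018 per library, and the part of depth in these differences was not tested.

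**Figure D5:**
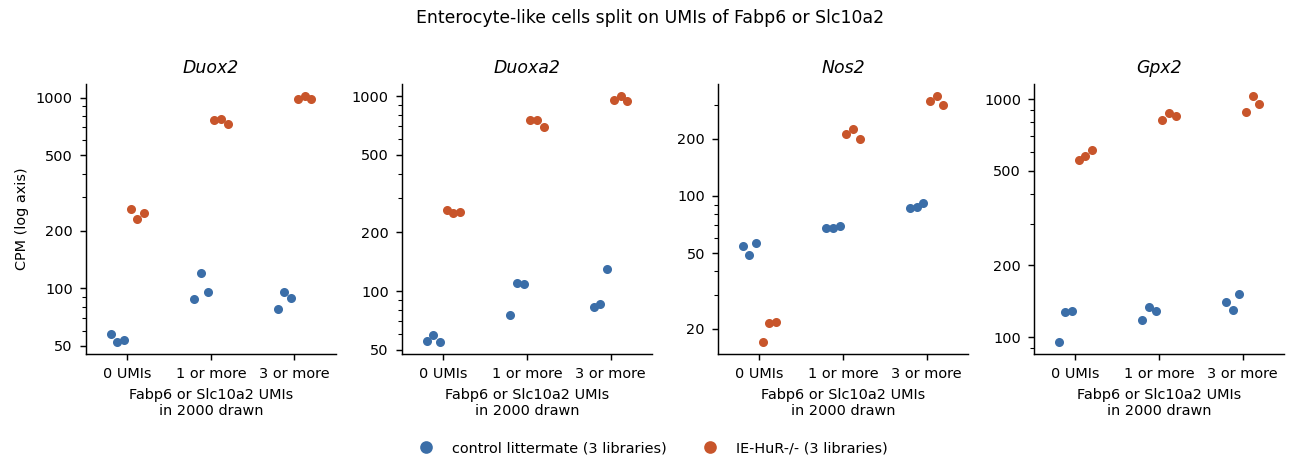
Level (CPM, log axis) of Duox2, Duoxa2, Nos2 and Gpx2 in enterocyte-like cells without and with a Fabp6 or Slc10a2 UMI, with 1 point per library and colour for the label. Nos2 lies lower under the IE-HuR-/- label in cells without such a UMI (17.1 to 21.6 against 48.7 to 56.7 CPM) and higher in cells with one (199 to 226 against 67.6 to 69.1 CPM).

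Cells with Duox2 carried other marks of the villus and of the distal intestine. Duox2-positive cells were first set against the negative cells of the same library nearest in depth. In the libraries labelled IE-HuR-/- the depths could not be matched, with medians of 8395 to 10999 UMIs for positive and 1540 to 1904 UMIs for matched negative cells. Matched negative cells were shallower in the control libraries too, with medians of 8651 to 14559 UMIs against 12386 to 20641 UMIs for positive cells. A split on Duox2 among 2000 drawn UMIs, added after the poor match was seen, is therefore given beside the matched fit. In that split positive cells were still deeper in each library, with medians of 12051 to 20628 UMIs against 8174 to 13378 UMIs in negative cells. Levels were summed over all UMIs of each cell, and the part of depth in the differences was not tested. Duoxa2 was higher in positive cells by 3.86 on the log2 scale in the matched fit and by 3.50 in the split, where it was 301, 358, 347, 999, 1060 and 997 CPM in positive and 35.3, 39.2, 33.6, 108, 99.8 and 91.5 CPM in negative cells of the 6 libraries, controls first. Nos2 was higher by 2.45 and 1.79, at 92.9, 118, 92.7, 144, 166 and 141 CPM in positive and 52.7, 45.1, 54.7, 32.8, 37.1 and 34.6 CPM in negative cells of the split (edgeR adjusted p = 0.00225). Both genes were higher in positive cells of every library. Gpx2 was lower by -0.28 (adjusted p = 0.0100) and -0.42 (adjusted p = 0.0475), in 6 of 6 libraries of the split, and its matched call was lost with 1 negative cell per positive cell (-0.26, adjusted p = 0.0750). These fits called 61.1% and 66.6% of all genes, so a call alone sets no gene apart.

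Among the largest rises in the split were Gcnt1, a core 2 glycosyltransferase (3.07), Cd274, which encodes PD-L1 (2.92), Marcksl1 (2.79), Sprr1a, a cornified envelope protein (2.76), Marcks (2.27) and Hk2, the inducible hexokinase (2.10). Marcksl1 (2.82), Marcks (2.18) and Hk2 (2.14) were also among the 10 largest in the matched fit, along with Saa1 (3.17) and Nt5e, a villus-tip marker (2.05). The 5 largest falls in the split were Ephx1, an epoxide hydrolase (-3.18), Gm3776 (-2.89), S100g, the intestinal calcium-binding protein (-2.84), Gsta3, a glutathione transferase (-2.72), and Ugt2b5, a glucuronosyltransferase (-2.68). Regional genes split in the same cells: Slc10a2 was higher by 1.64 in 6 of 6 libraries, Pdx1 lower by -2.505 and Slc40a1 by -1.92, and Fabp6 was not called (0.84, adjusted p = 0.138). Of the genes that remove oxidants, Gpx3, the secreted glutathione peroxidase, was higher by 2.01. Gpx1 (-1.40), Gpx4 (-0.71), catalase (Cat, -0.84), Prdx1 (-0.83), Txn1 (-0.92), Sod1 (-0.69) and Sod2 (-0.85) were lower in the Duox2-positive cells.

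The partners of these enzymes were read from lists of the pathway in the fit over all epithelial cells. These lists too were chosen with earlier results of these data known, so counts from them are a description. In that fit the median over all genes was -0.02, 24.2% of all genes tested were called higher and 3869 of 13907 were called lower. Of the dual oxidases and their maturation factors, 3 of 4 were tested and 3 rose. Duoxa1 was among them (2.89), at under 1 CPM in each library and with counts that may belong to Duoxa2, while Duox1 had 11 UMIs. Of the 5 genes of the NOX1 complex, Cyba (0.53) and Rac1 (0.46) rose, the organiser Noxo1 fell (-0.25), and 2 were not called, with a median of 0.25. Of the 6 other oxidases, 1 passed the filter, Xdh, xanthine dehydrogenase, which fell (-0.12).

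Genes of nitric oxide and arginine metabolism moved both ways. Of 9 listed genes 6 were tested, and Nos2 and Gch1, which makes the tetrahydrobiopterin that the enzyme needs, rose. Gch1 was 71.6, 74.2 and 79.5 CPM in the control libraries and 118, 125 and 114 CPM in those labelled IE-HuR-/- (0.79). The arginases, which compete for the same substrate, fell, Arg2 by 0.26 and Arg1 by 1.05 on the log2 scale, and the list median was 0.28. Among glutathione peroxidases 5 of 6 were tested and 3 rose, Gpx2, Gpx3 (1.26) and Gpx1 (0.19), with a median of 0.45.

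Other enzymes that remove peroxide and superoxide rose in 8 of 14 cases, beside 24.2% of all genes. Gsr, which regenerates reduced glutathione, rose most (0.76), from 60.9, 62.1 and 58.7 CPM to 92.9, 93.7 and 95.3 CPM. The rest were peroxiredoxins, thioredoxin, thioredoxin reductase and superoxide dismutases, at 0.17 to 0.34, and the list median was 0.21. Catalase fell, from 340, 332 and 343 CPM in the control libraries to 193, 202 and 203 CPM (-0.63). Without scaling by trimmed means the median of all genes moved to -0.15. The list then had 6 higher and 3 lower in place of 8 and 1, so some of its calls depend on the scaling. Glutathione peroxidases then had 2 higher and 1 lower.

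Genes on a list of IL-22 or IL-17 receptors and of the epithelial response to them mostly rose too. Of 14 listed genes 13 were tested, 10 rose and 3 fell (24.2% of all genes were higher), with a median of 0.55. Saa1, serum amyloid A, was 4.64, 2.38 and 5.67 CPM in the control libraries and 273, 321 and 281 CPM in those labelled IE-HuR-/- (6.27), although reads of Saa1 and Saa2 may be split between near-identical copies. Reg3b, an antimicrobial lectin, was 1906, 2128 and 2320 CPM and then 9967, 10281 and 10403 CPM (2.40). Fut2, the fucosyltransferase of the apical surface, rose by 2.06. The receptor subunits Il22ra1, Il10rb and Il17ra fell by 0.20, 0.11 and 0.18, and Il17rc rose by 0.30. In myeloid-like cells Reg3b and Reg3g were the 2 genes called from all lists (2.63 each), both of them genes that epithelial cells make, and the part of free RNA there was not tested.

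Across 83 sums of libraries and 14 cell classes, the genes whose level was most like that of a member are given as a description, since sums of 1 library share its depth and free RNA. Fabp6 (Pearson r = 0.80), Reg3b (0.78), Mgat4c (0.75), Muc4 (0.73) and Saa1 (0.72) were most like Duox2 when the other members were set aside, and Duoxa2, at 0.75, would lie between Reg3b and Mgat4c. For Gpx2 they were Tstd1 (0.75), Rnf186 (0.74), Lgals4 (0.73), Gss, glutathione synthetase (0.73), and Reg3g (0.73). Those of Cybb were Ly86 (0.94), Pld4 (0.93), BC028528 (0.90), March1 (0.89) and Gpr183 (0.89), and Cybb against Duox2 was at -0.20.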

How the data were processed

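Per the file headers, the authors made the deposited UMI counts with Cell Ranger 6.1.2, 1 matrix per library. The labels name a 5′ kit, mm10 and Seurat, while the study's methods name a 3′ kit and a human reference with another Cell Ranger version, so the kit is uncertain. Every deposited barcode had at least 500 UMIs. No doublet caller was run, and 990 cells with markers of 2 lineages were left out. Neither the barcodes nor the classes were taken from the study's own clusters.

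Cells were assigned to classes by the share of their UMIs in marker genes and the number of markers detected (epithelial: at least 0.4% of UMIs and 3 of 12 markers), and raw counts were summed per library and class. Each library came from 1 animal and was the replicate (n = 3 per label). Sums were scaled by trimmed means (TMM), filtered for low counts (a minimum of 10 per library and 15 in total) and fitted with edgeR 4.0.16 (quasi-likelihood, robust) in R 4.3.3, with Benjamini-Hochberg adjustment over all genes tested and a threshold of 0.05. Interaction and positive-against-negative fits had the library as a term. CPM are counts scaled to a total of 1000000 UMIs per class and library. Shares, co-detection, the Duox2 split and the Fabp6 or Slc10a2 strata used 2000 UMIs drawn per cell without replacement. Cells with fewer UMIs were left out of them. Exact permutation tests were two-sided (scipy 1.17.1). Counts and floors of 3 UMIs cover counting error only. On simulated sums with known changes of 1 on the log2 scale, 90.8% of changed genes were recovered in the epithelial, 89% in the enterocyte-like, 79.4% in the goblet-like, 68.6% in the stem or transit amplifying-like and 66.7% in the myeloid-like class, and 62% by the interaction fit. Each class was simulated at the same dispersion. It was smaller than that fitted in the stem or transit amplifying-like and myeloid-like sums (biological coefficients of variation 0.256 and 0.285). In those classes recovery may be lower than given.

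The named genes were Elavl1, the 6 members, the pathway lists, the 10 largest rises and the 5 largest falls with at least 20 CPM between Duox2-positive and Duox2-negative cells, and the 5 genes most like Duox2, Gpx2 and Cybb. Regional genes were added after their values were seen. A result of the pathway lists is not reported here. The members and lists were chosen with earlier results of these data known. Upstream sequences are from RefSeq (GRCm38.p6), where 5 of 6 members matched, and gene positions from GENCODE on the same build. Alternatives were DESeq2 1.42.0, no TMM, no count filter, a replicate block, cells with at least 2000 UMIs or at most 25% mitochondrial UMIs, cells of 2 lineages kept, 1000 or all UMIs, a pseudocount of 0.1 CPM and each library left out. Samples with the same replicate number did not deviate together.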

Additional observations from a re-analysis of the deposited data

Results flagged for a closer look

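Differences of the label effect between kinds of cells were found for 4 members by an edgeR interaction test, each given as the difference of 2 log2 fold changes. Gpx2 had a smaller effect in stem or transit amplifying-like than in enterocyte-like cells (-2.49, adjusted p = 3.0e-10). Enterocyte, epithelial and T or NK markers in the stem or transit amplifying-like cells also differed between labels. Between the upper and the lower bin of the villus, the effect was larger in the upper bin for Duoxa2 (0.97, adjusted p = 0.00669), Nos2 (1.496, adjusted p = 0.0333) and Gpx2 (1.40, adjusted p = 0.0147). Between enterocyte-like cells with and without a Fabp6 or Slc10a2 UMI, it was larger in the first for Duox2 (0.83, adjusted p = 0.0463), Duoxa2 (0.87, adjusted p = 0.0244), Nos2 (3.16, adjusted p = 9.4e-11) and Gpx2 (0.54, adjusted p = 4.6e-07). For Nos2 the 2 effects had opposite signs. Of all genes tested, 0.459% passed the test between stem or transit amplifying-like and enterocyte-like cells, 26.4% the test between bins and 17.3% the test between strata. The bins and the Fabp6 or Slc10a2 strata were chosen after the data had been seen, and genes that define both moved with the label. With single libraries left out, the Nos2 difference between bins was lost in 5 of 6 cases (adjusted p = 0.0533 to 0.110), the Duoxa2 difference between bins in 1 (adjusted p = 0.0507), and the Gpx2 difference between bins and the Duox2 and Duoxa2 differences between strata also missed the threshold. The Nos2 difference between bins was lost from cells with at least 2000 UMIs too (0.95, adjusted p = 0.110).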

How the results depend on the processing

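Of 956 alternative values, 855 kept their direction and their side of the threshold, or stayed within 1.5 times for a count. Class levels and co-detection with 1 library left out were judged by direction alone, since an exact test of 5 libraries cannot reach the threshold. The rises of Duox2, Duoxa2, Nos2 and Gpx2 in epithelial and enterocyte-like cells kept their direction and their side of the threshold under each alternative run. Counts of called genes moved most in small classes. In stem or transit amplifying-like cells 12 genes were called, against 19 by DESeq2, 121 with no filter on low counts, 6 from cells with at least 2000 UMIs, 4 from cells with at most 25% mitochondrial UMIs, 26 with cells of 2 lineages kept, and 0 to 41 with 1 library left out, and Duox2 was called there only with no filter (1.75, adjusted p = 0.00586). In myeloid-like cells 5 were called, against 22 by DESeq2, 116 with no filter, 0 from cells with at least 2000 UMIs (163 at an unadjusted p under 0.05), 8 with cells of 2 lineages kept and 1 to 35 with 1 library left out. Leaving out 1 library gave 307 to 1009 genes (741 with all) whose label effect differed in goblet-like cells, and 54 to 195 (57 with all) in stem or transit amplifying-like cells. The cause was not tested.

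Co-detection of Duox2 with Duoxa2, a mean log2 ratio of 1.70, was 2.05, 1.59 and 1.16 within the lower, middle and upper bin, where the adjusted p missed the threshold although 6 of 6 libraries stayed above 0. Signs turned within bins for Duox2 with Gpx2, called at -0.75 over all enterocyte-like cells (0.20 in the upper bin), Duoxa2 with Gpx2, called at -0.50 (0.10 in the middle and 0.47 in the upper bin), and Nos2 with Gpx2, not called at 0.032 (-0.22 in the lower bin). With 1 library left out, ranges crossed 0 for Nox1 in epithelial cells (-0.15 to 0.47), Gpx2 in stem or transit amplifying-like cells (-0.020 to 0.27), goblet-like minus enterocyte-like effects of Duox2 (-0.11 to 0.30) and Duoxa2 (-0.24 to 0.16), goblet-like minus enterocyte-like levels of Duox2 (-0.093 to 0.047) and Nos2 (-0.26 to 0.012), Nos2 with Gpx2 co-detection (-0.0067 to 0.10) and the Duox2 effect between bins (-0.18 to 0.11).

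Same-numbered samples correlated at -0.142 to 0.0538 over 5 classes in their deviations from the group means, so the numbers do not pair the samples. A replicate block called 22 genes in stem or transit amplifying-like cells, 6993 in epithelial and 7325 in enterocyte-like cells (7241 and 7466 without it), and it changed no call of a member.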
